A study of Danio rerio with 10 samples.

Results

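The genes described here encode the enzymes that couple foreign compounds and hormones to a sugar acid, a sulphate group or glutathione. They are all entries of the 96 hours post fertilization (hpf) zebrafish tables whose symbol begins with ugt, sult or gst followed by a family number or letter, with gstp1 and gstp2 left out. Under Ensembl and RefSeq annotation together there were 60 such symbols among 20894 gene symbols, namely 36 UGT, 14 SULT and 10 GST genes. The Ensembl table listed 46 of its 18910 genes (22 UGT, 14 SULT and 10 GST) and the RefSeq table held 55 of its 12415 genes (34 UGT, 13 SULT and 8 GST). At 3.3 hpf, 19 of the 60 symbols were listed under either annotation.

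UDP-glucuronosyltransferases (UGTs) of the endoplasmic reticulum transfer a sugar, mostly glucuronic acid, from a UDP-sugar to a lipophilic substrate. Cytosolic sulfotransferases (SULTs) transfer sulphate from the donor PAPS, and glutathione S-transferases (GSTs) add the tripeptide glutathione to electrophiles such as the epoxides that cytochrome P450 enzymes make from polycyclic aromatic hydrocarbons. In vertebrates these reactions run mainly in liver and intestine and make compounds water soluble, and several of the genes respond to the aryl hydrocarbon receptor (AhR) or to the oxidant-responsive factor Nrf2.

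RNA sequencing was done on pooled whole animals of the AB line, at 3.3 hpf (blastula embryos, 3 control and 3 exposed libraries) and at 96 hpf (free-swimming larvae, 2 control and 2 exposed libraries). Exposed groups received benzo[a]pyrene (BaP) at 50 µg/L, a combustion product that acts as an AhR ligand, and control groups are labelled 0.1 mL/L without naming what was added. Whether replicates are separate clutches is not in the labels, and p-values measure only the spread between these libraries, which may be technical. Values are CPM, read counts brought to a common library total by the authors, then scaled between libraries with trimmed-mean factors. They are not corrected for gene length, so levels are compared between libraries and not between genes. In whole animals, fewer cells of a type and less RNA per cell cannot be told apart. The reads assigned to listed genes, estimated from the step between low values, numbered 17457794 to 22166215 per library at 3.3 hpf and 13158056 to 17685795 at 96 hpf in the Ensembl tables. The AhR target gene cyp1a, which encodes a P450 enzyme that oxidises BaP, stood at 16.0 and 15.6 CPM in larval controls and at 779 and 854 CPM in BaP larvae. Along the first principal component of the larval libraries, BaP replicate 2 (52.9) stood apart from BaP replicate 1 (4.10) and from the controls (-20.7 and -36.3).

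At 96 hpf, 1 gene of each family was called higher in BaP larvae and no gene of the families was called lower. These were the sulfotransferase gene sult6b1, the UGT1 entry ugt1b4 and the omega-class glutathione transferase gene gsto2, each called by limma at a Benjamini-Hochberg adjusted p under 0.05 over all 18910 genes. The count was 3 of 46 listed members, against 0.381% of all listed genes called higher and 0.0423% called lower. It was 0 with no trend in the spread, when 0.0106% of all genes were called. In the fit of all 10 libraries, from which sult6b1 and ugt1b4 were absent, it was 0, against 0.0312% of all genes. Of the listed members 39 lay above control in the group difference, against 52.2% of all genes. Their median log2 difference was 0.33, against 0.02 over all genes. Of the 46 listed members 43 were above 1 CPM in every library, and the listing rule asked for 2 libraries. Low entries such as sult1st2 reached it with both libraries of the higher group and 1 of the other.

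In each family most listed genes lay above control. All 14 listed SULT genes, 9 of 10 GST genes and 16 of 22 UGT genes had a positive log2 difference. The median was 0.31 for SULT, 0.54 for GST and 0.25 for UGT genes. BaP libraries lay above both controls without overlap for 9 GST, 5 SULT and 11 UGT genes, in all 25 of 46, against 26% of all genes. They lay below both controls for 2 UGT genes, ugt2b3 and ugt5a4, against 24.3% of all genes. At an unadjusted p under 0.05 there were 7 GST, 2 SULT and 7 UGT genes, or 16 of 46, against 15.8% of all genes. The RefSeq table gave medians of 0.27, 0.46 and 0.22 for SULT, GST and UGT genes. Without BaP replicate 2 the Ensembl medians were 0.12 for SULT, 0.30 for GST and 0.12 for UGT genes, and without BaP replicate 1 they were 0.63, 0.75 and 0.53. No test between the families was made.

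**Figure D1:**
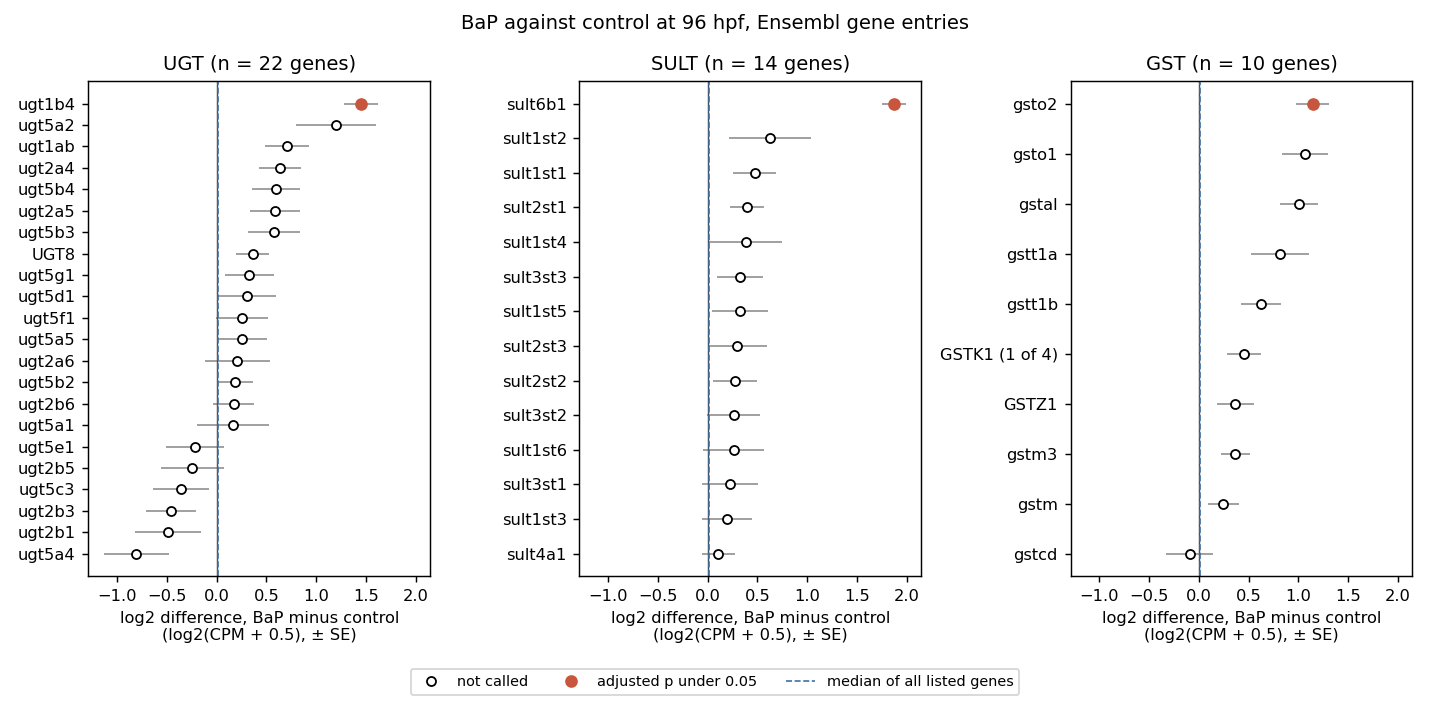
Log2 difference between BaP and control larvae at 96 hpf for the 46 listed Ensembl entries, 1 panel per family, with the standard error of each fit (2 libraries per group) as bars. Filled points are the 3 genes with an adjusted p under 0.05, the dashed line is the median of all listed genes (0.02), and SULT points all lie to the right of 0 whereas UGT points run from -0.80 to 1.45.

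Among the sulfotransferases, sult6b1 was the gene called. It belongs to a SULT family whose substrates are less well known than those of SULT1 and SULT2 enzymes. Its level was 62.7 and 61.3 CPM in controls and 217 and 238 CPM in BaP larvae. Both BaP libraries stood far above both controls, and within each group the libraries differed little. The log2 difference was 1.87 (SE 0.12, limma adjusted p = 0.00103, n = 2 per group), and under RefSeq annotation it was 1.82 (SE 0.12, adjusted p = 4.80e-04). With no trend in the spread the Ensembl call was lost and the RefSeq call kept. The 2 annotations assigned this gene nearly the same reads, 826 against 826 in control replicate 1 and 3971 against 3971 in BaP replicate 2.

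No other SULT gene passed the test, and their log2 differences ran from 0.11 to 0.63. The phenol-type sulfotransferase gene sult1st1 stood at 29.1 and 32.5 CPM in controls and at 34.0 and 54.2 CPM in BaP larvae (log2 0.47, SE 0.22, adjusted p = 0.330). Its difference came mostly from BaP replicate 2, since without that library it was 0.14. The gene sult2st1, of the hydroxysteroid-type SULT2 family, stood at 20.3 and 22.6 CPM in controls and at 32.1 and 25.1 CPM in BaP larvae (log2 0.40, SE 0.17, adjusted p = 0.316). For sult2st1 the groups did not overlap, and here BaP replicate 1 was the higher library. Its neighbour in the family, sult2st2, stood at 47.2 and 41.1 CPM in controls and at 41.7 and 68.1 CPM in BaP larvae. The groups of sult2st2 overlapped, and without BaP replicate 2 its log2 difference turned from 0.27 to -0.08. The annotations gave these entries different reads. The fewest in a larval library were 267 for sult2st1 and 622 for sult2st2 under Ensembl, and 425 and 474 under RefSeq. Under RefSeq the log2 differences were 0.26 for sult2st1 and 0.35 for sult2st2.

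Most of the remaining SULT genes were low or flat. An exception was sult1st6, at 21.1 and 15.8 CPM in controls and at 15.5 and 31.3 CPM in BaP larvae. Its groups overlapped (log2 0.26, SE 0.31). The entry sult1st2 stood at 0.81 and 2.04 CPM in controls and at 1.71 and 3.08 CPM in BaP larvae (log2 0.63, SE 0.41, adjusted p = 0.471). These groups overlapped, and the value rests on few reads. The entry sult1st3 stood at 3.37 and 4.13 CPM against 4.58 and 4.13 CPM (log2 0.19, adjusted p = 0.730). The conserved brain sulfotransferase gene sult4a1 stood at 33.04 and 25.6 CPM in controls and at 32.1 and 30.6 CPM in BaP larvae (log2 0.11, SE 0.16, adjusted p = 0.775), so its BaP libraries lay within the control range. By subfamily the median log2 difference was 0.35 over 6 SULT1 genes, 0.30 over 3 SULT2 genes and 0.26 over 3 SULT3 genes.

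Among the UGT genes the UGT1 entry ugt1b4 was the gene called. In mammals UGT1 enzymes glucuronidate bilirubin, phenols and hydroxylated aromatic hydrocarbons. The Ensembl entry ugt1b4 stood at 40.7 and 36.3 CPM in controls and at 90.3 and 123 CPM in BaP larvae. The log2 difference was 1.45 (SE 0.17, limma adjusted p = 0.0148), and it ran from 1.22 to 1.67 when each library in turn was left out. With no trend in the spread the call was lost. The other UGT1 entry, ugt1ab, stood at 73.7 and 82.8 CPM in controls and at 99.7 and 164 CPM in BaP larvae. Its groups did not overlap, but the difference of 0.71 (SE 0.22) had an adjusted p of 0.228, and it was 0.35 without BaP replicate 2.

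The UGT2 and UGT5 genes spread on both sides of control. UGT2 enzymes act on steroids, bile acids and xenobiotics in mammals, and UGT5 is a family found in teleost fish. The entry ugt2a4 stood at 15.3 and 18.0 CPM in controls and at 21.5 and 31.5 CPM in BaP larvae (log2 0.64, SE 0.21, adjusted p = 0.241), without overlap. Its difference was 0.37 without BaP replicate 2 and 0.91 without BaP replicate 1. The entry ugt5a2 stood at 1.93 and 5.59 CPM in controls and at 8.14 and 8.51 CPM in BaP larvae (log2 1.198, SE 0.40, adjusted p = 0.246). Its BaP libraries agreed closely while its controls lay far apart, and the difference was 0.53 without control replicate 1 and 1.86 without control replicate 2.

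Of the 22 UGT entries 6 lay below control, none of them called. In the ugt2b subfamily 1 of 4 genes lay above control, with a median of -0.35. Under RefSeq annotation 2 of 4 lay above control, with a median of -0.11. The entry ugt2b3 stood at 5.95 and 8.10 CPM in controls and at 4.51 and 5.404 CPM in BaP larvae (log2 -0.45, adjusted p = 0.405). The entry ugt2b1 stood at 4.95 and 3.58 CPM against 2.07 and 3.90 CPM (log2 -0.49, adjusted p = 0.491), with overlapping groups, and ran from -0.87 to -0.10 with a library left out. The lowest difference of the 46 was that of ugt5a4, named here after its values were seen, at 2.71 and 1.72 CPM in controls and 0.96 and 1.09 CPM in BaP larvae (log2 -0.80, SE 0.33, adjusted p = 0.293). The entries ugt5c3 (-0.36) and ugt5e1 (-0.22) also lay below control with overlapping groups. The ugt2a genes (3 of 3, median 0.59) and the ugt5b genes (3 of 3, median 0.58) lay above it. UGT8, which encodes the ceramide galactosyltransferase of myelin lipid synthesis and is no detoxifying enzyme, stood at 23.1 and 22.2 CPM in controls and at 26.0 and 32.8 CPM in BaP larvae (log2 0.36, SE 0.17, adjusted p = 0.333). Its difference was 0.20 without BaP replicate 2 and 0.53 without BaP replicate 1.

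**Figure D2:**
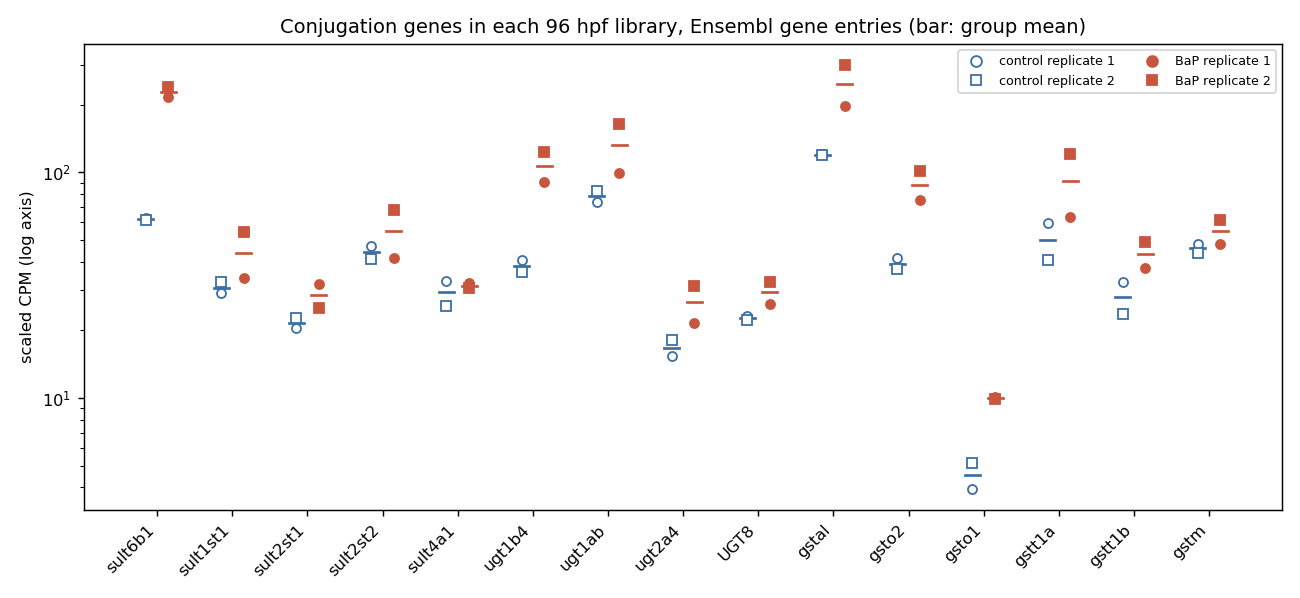
Scaled CPM of 15 conjugation genes in each 96 hpf library on a log axis, controls open and BaP filled, with circles for replicate 1, squares for replicate 2 and a bar at each group mean. For sult6b1, ugt1b4 and gsto2 both BaP libraries stand clear of both controls, whereas for sult2st2, sult4a1 and gstm BaP replicate 1 lies within or near the control range.

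The 2 annotations divide the UGT1 genes differently. In the current zebrafish reference (assembly GRCz12tu, not the Zv9 build of these files) the 7 ugt1a models overlap one another and 6 share a gene boundary, and the 6 ugt1b models overlap with 5 sharing a boundary. This is the known layout of UGT1 loci, in which alternative first exons are joined to a common set of last exons. Ensembl release 70 gave the ugt1a stretch a single entry, called ugt1ab, where RefSeq listed 6 entries. In control replicate 1 the Ensembl entry held 971 reads and the 6 RefSeq entries together 973. In BaP replicate 2 the sums were 2729 and 2672, and the ratio of RefSeq to Ensembl reads was between 0.979 and 1.00 in the 4 libraries. The Ensembl entry ugt1b4 likewise matched the sum of 4 RefSeq entries, with 536 against 538 reads in control replicate 1 and 2056 against 2050 in BaP replicate 2. The entries therefore add up to the same reads, and they differ in how these are shared out. The same held for ugt2a4 against 4 RefSeq entries (ratios 1.01 to 1.02) and for ugt5b2 against 2 RefSeq entries (ratios 0.968 to 0.998). For ugt5a2 the reads added up less well, at 25.4 against 33.5 for the RefSeq entries ugt5a2 and ugt5a3 together in control replicate 1, with ratios of 1.03 to 1.32.

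Within the ugt1b stretch the RefSeq entry ugt1b1 was the entry called. It stood at 33.01 and 30.3 CPM in controls and at 84.7 and 104 CPM in BaP larvae (log2 1.56, SE 0.15, limma adjusted p = 0.00362 over 12415 genes). The count called in the RefSeq table was 3 of 55 members (sult6b1, ugt1b1 and gsto2), all higher, against 0.499% of all RefSeq genes called higher. The calls of ugt1b1 and gsto2 were lost in this table when either control was left out. A single control then remained, and few genes of any kind were called. The entry ugt1b5 stood at 8.04 and 4.57 CPM in controls and at 16.1 and 29.4 CPM in BaP larvae (log2 1.76, SE 0.34, adjusted p = 0.0832), without overlap. The entries ugt1b7 (log2 -0.12) and ugt1b2 did not follow. For ugt1b2 the values were 3.80 and 3.95 CPM in controls and 2.61 and 2.41 CPM in BaP larvae (log2 -0.54, SE 0.27, adjusted p = 0.369), so both BaP libraries lay below both controls.

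Within the ugt1a stretch the RefSeq entry ugt1a1 stood at 27.8 and 30.7 CPM in controls and at 48.4 and 87.7 CPM in BaP larvae (log2 1.14, SE 0.25, adjusted p = 0.122). The entry ugt1a7, which had the highest control level in CPM of the 14 symbols listed under RefSeq alone, stood at 39.8 and 45.7 CPM against 49.4 and 69.9 CPM (log2 0.46, SE 0.19, adjusted p = 0.295). The groups of both entries were separate, and BaP replicate 2 was the higher library in both. The symbol ugt1ab itself stood at 4.39 and 10.4 CPM in RefSeq controls and at 6.25 and 3.25 CPM in BaP larvae (log2 -0.54, SE 0.42, adjusted p = 0.562). The same symbol thus had a difference of 0.71 under Ensembl, where it stood for the whole stretch, and of -0.54 under RefSeq, where it stood for a small share of it. The other symbol with opposite signs was ugt2b3, at -0.45 under Ensembl and 0.04 under RefSeq. Its RefSeq values were 5.41 and 9.06 CPM in controls and 6.30 and 8.24 CPM in BaP larvae, so the controls spanned both BaP libraries. Of the 41 symbols listed under both annotations, the other 39 had the same sign in both.

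How reads are shared between such entries is uncertain. Among values between 0.5 and 300 reads, 30 of 72 UGT values in the Ensembl table (41.7%) and 33 of 122 in the RefSeq table (27.0%) were whole reads within 0.05, against 77.1% and 85.8% over all genes. For SULT genes it was 14 of 36 (38.9%) and 14 of 31 (45.2%). For GST genes it was 8 of 9 (88.9%) in both tables, and few of their values lay in this range. How the authors divided reads that fit several entries is not given in the sources used here. The per-entry differences within ugt1a and ugt1b are therefore less certain than the summed ones. Those of sult2st1 and sult2st2, whose reads also differed between the annotations, are uncertain too.

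**Figure D3:**
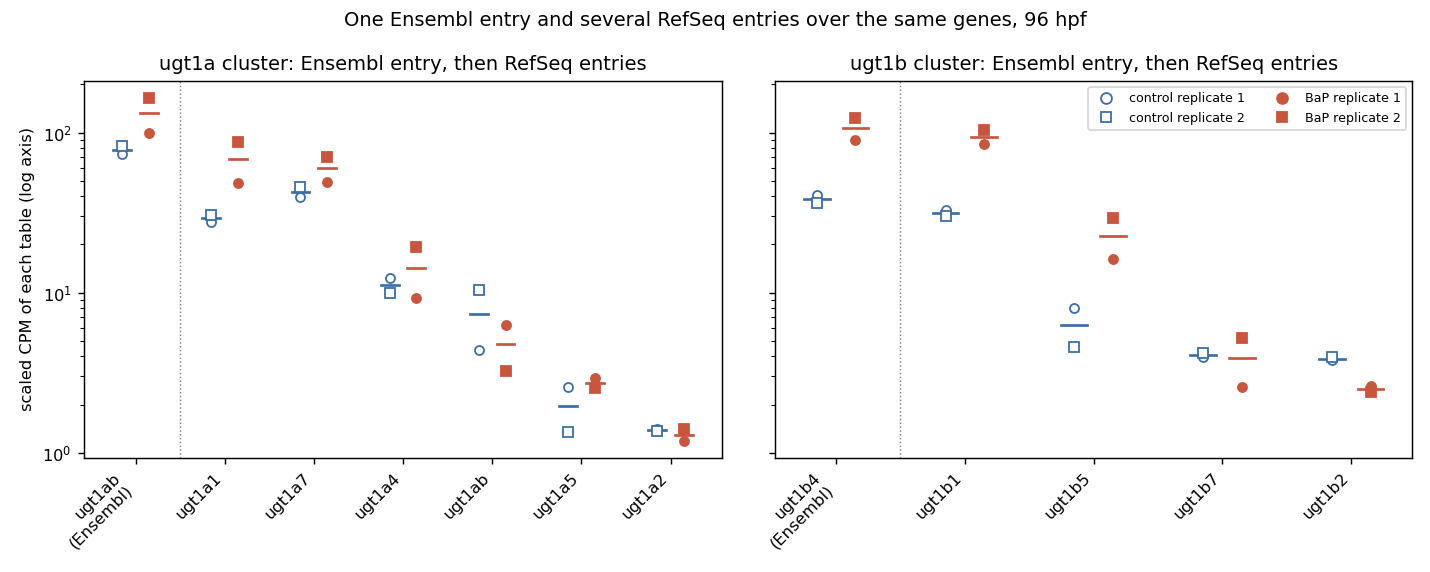
Scaled CPM in each 96 hpf library (log axis) for the Ensembl entry of each UGT1 stretch, left of the dotted line, and for the RefSeq entries over the same stretch, right of it; symbols as in the plot of 15 genes. The BaP libraries stand above controls for ugt1a1, ugt1a7, ugt1b1 and ugt1b5, and below them for ugt1b2, while ugt1b7, ugt1a4, ugt1ab, ugt1a5 and ugt1a2 overlap or lie close together.

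Among the glutathione transferases the omega-class genes had the highest differences. Omega GSTs carry a cysteine in the active site and reduce dehydroascorbate and methylated arsenic compounds. The gene gsto2 stood at 41.5 and 37.3 CPM in controls and at 75.4 and 101 CPM in BaP larvae (log2 1.14, SE 0.17, limma adjusted p = 0.0367). Under RefSeq annotation it was 1.104 (SE 0.16, adjusted p = 0.0300). Under both annotations the call was lost on CPM as deposited, with no trend in the spread, and in the fit of all 10 libraries. With same-numbered libraries paired it was kept under Ensembl and lost under RefSeq. The gene gsto1 stood at 3.95 and 5.13 CPM in controls and at 10.1 and 9.85 CPM in BaP larvae (log2 1.06, SE 0.23, adjusted p = 0.139). Its BaP libraries were about equal and both above the controls.

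The alpha-class gene gstal, named gsta.1 in the current reference, stood at 120.3 and 119.7 CPM in controls and at 196 and 299 CPM in BaP larvae (log2 1.01, SE 0.19, adjusted p = 0.0924). Alpha GSTs conjugate diol epoxides of aromatic hydrocarbons and reduce lipid peroxides in mammals. The controls of gstal agreed almost exactly while its BaP libraries lay apart. With same-numbered libraries paired it was called, when 0.82% of all genes were called, against 0.423% in the main fit. With the crossed pairing, chosen after seeing the data, it was also called, when 11.5% of all genes were. It was not called with other scalings, pseudocounts or spreads. With a library left out its difference ran from 0.71 to 1.31. The theta-class genes followed. The gene gstt1a stood at 59.8 and 40.9 CPM in controls and at 63.5 and 120.5 CPM in BaP larvae (log2 0.82, SE 0.29, adjusted p = 0.263), and without BaP replicate 2 the difference was 0.36. The gene gstt1b stood at 32.7 and 23.5 CPM in controls and at 37.6 and 49.3 CPM in BaP larvae (log2 0.63, SE 0.20, adjusted p = 0.237).

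The remaining GST entries lay between -0.09 and 0.46. The mu-class gene gstm stood at 48.1 and 43.9 CPM in controls and at 48.2 and 61.6 CPM in BaP larvae (log2 0.24, SE 0.16, adjusted p = 0.459), so BaP replicate 1 was level with control replicate 1. The kappa-class entry GSTK1 (1 of 4), listed under Ensembl alone, stood at 38.2 and 33.8 CPM against 42.5 and 57.6 CPM (log2 0.46, SE 0.17, adjusted p = 0.280). The entry gstcd, which encodes a protein with a GST-like C-terminal domain, stood at 6.99 and 7.69 CPM in controls and at 7.95 and 5.89 CPM in BaP larvae (log2 -0.09, SE 0.23, adjusted p = 0.867) and was the GST entry below control. Of the pi-class genes left out of the set, gstp1 rose from 266 and 245 CPM to 676 and 817 CPM (log2 1.54, SE 0.14, adjusted p = 0.00525) and gstp2 from 5.83 and 6.53 CPM to 20.6 and 15.3 CPM (log2 1.45, adjusted p = 0.0383). These 2 differences were larger than that of any of the 10 GST genes described here, without a test of that difference.

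In the Ensembl transcript table none of the 74 transcripts of the set was called at 96 hpf, against 0.00384% of all listed transcripts. At an unadjusted p under 0.05 there were 7 UGT, 1 SULT and 7 GST transcripts, against 10.7% of all. The 2 transcripts of gsto2, named after their values were seen, had different values, and the difference between them was not tested. The transcript gsto2-001 stood at 24.5 and 23.1 CPM in controls and at 56.2 and 87.5 CPM in BaP larvae (log2 1.54, SE 0.24, adjusted p = 0.336). The transcript gsto2-002 stood at 17.0 and 14.0 CPM against 19.1 and 15.2 CPM (log2 0.14, SE 0.21). The groups were separate for the first and overlapped for the second. The transcript of ugt1b4 with the highest difference, ugt1b4-204, stood at 32.9 and 28.0 CPM in controls and at 84.3 and 116 CPM in BaP larvae (log2 1.69, SE 0.20, adjusted p = 0.237). The single transcript of sult6b1 had a log2 difference of 1.88 (SE 0.13, adjusted p = 0.0854). The transcripts ugt2a4-002 and ugt2a4-202 held identical values in each larval library, at 1.35, 1.67, 1.15 and 3.23 CPM. Their reads were thus not told apart in larvae. At 3.3 hpf they differed in BaP replicate 2 alone, at 3.78 and 1.82 CPM.

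The 2 BaP libraries differed in how far the families lay above control. Taken alone, BaP replicate 2 gave each family a higher median than BaP replicate 1, as the medians without each of them show. For 39 of the 46 genes BaP replicate 2 was the higher, against 50.7% of all genes. The GST genes lay above both controls in 10 of 10 cases in BaP replicate 1 and in 9 of 10 in BaP replicate 2, where all genes did so in 35.3% and 44.2%. The SULT genes did so in 6 of 14 cases in BaP replicate 1 and in 12 of 14 in BaP replicate 2. The 3 called genes were high in both libraries, and without BaP replicate 2 the log2 differences of sult6b1, ugt1b4 and gsto2 were 1.80, 1.22 and 0.93. Summed over the 22 UGT genes the level was 251 and 258 CPM in controls and 338 and 491 CPM in BaP larvae. The sum over the 14 SULT genes was 252 and 239 CPM against 412 and 509 CPM, of which sult6b1 made up the larger part of the rise.

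Markers of digestive organs lay above control in BaP larvae, furthest in BaP replicate 2, and none was called. All 11 listed of 12 liver markers lay above control in the group difference (median 0.36, none called), from 0.05 for cp to 1.67 for fabp10a. In BaP replicate 1, 3 of the 11 lay above both controls, against 35.3% of all genes. In BaP replicate 2 all 11 did, against 44.2% of all genes. The summed level of the liver markers was 4177 and 3934 CPM in controls, 4158 CPM in BaP replicate 1 and 6810 CPM in BaP replicate 2. The defining liver gene fabp10a, a fatty acid carrier, stood at 79.8 and 48.2 CPM in controls and at 159 and 248 CPM in BaP larvae (log2 1.67, SE 0.27, adjusted p = 0.0513). Of the intestine markers 8 of 9 were listed, all above control, with a summed level of 1606 and 1409 CPM in controls and of 1708 and 2247 CPM in BaP larvae. Of the exocrine pancreas markers 9 of 11 were listed, all above control, with sums of 707 and 879 CPM against 1256 and 1517 CPM. The 4 listed of 5 blood markers were below control in the group difference, each with overlapping groups. Their sums were 2622 and 1686 CPM in controls against 1622 and 1972 CPM in BaP larvae. Of 6 pronephros markers 2 lay above control, and none of either list was called. No defining marker of liver or gut was at 0. In BaP replicate 1 the median marker lay at a log2 difference of 0.01 for liver, 0.21 for intestine and 0.67 for exocrine pancreas, and in BaP replicate 2 at 0.72, 0.54 and 0.99, each against the control mean. The part of these organs in the values of the conjugation genes was not tested.

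**Figure D4:**
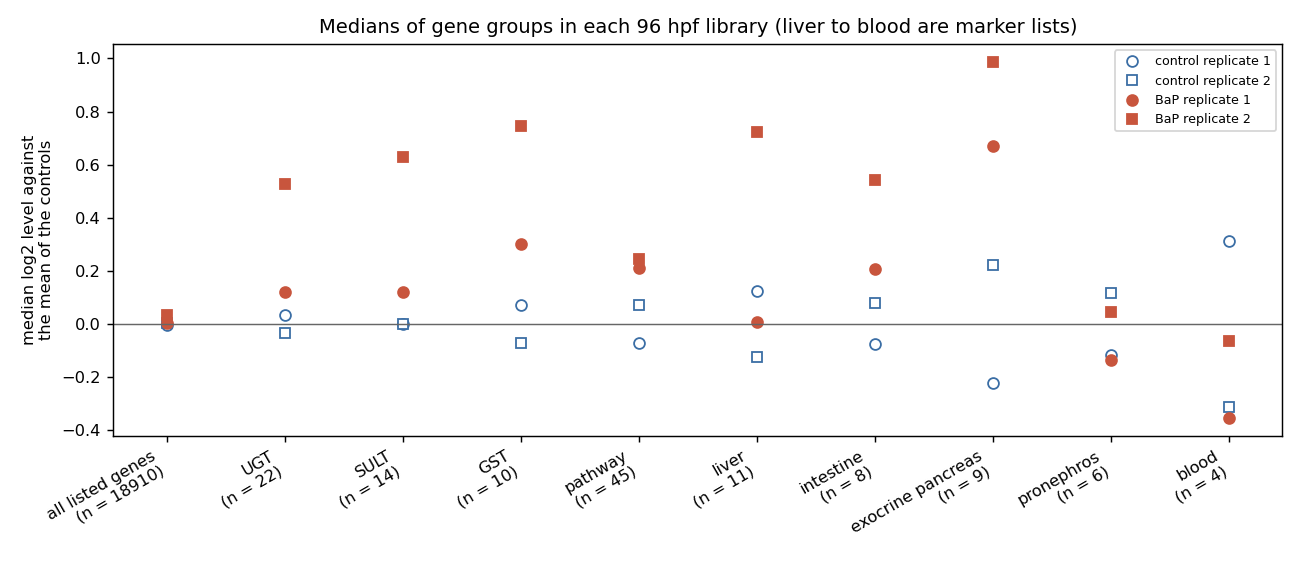
Median log2 level of each gene group in each 96 hpf library, relative to the mean of the controls, for all listed genes, the 3 families, the list of pathway partners and the marker lists of 5 tissues. BaP replicate 2 lies at 0.53 to 0.75 for the families and at 0.72, 0.54 and 0.99 for liver, intestine and pancreas markers, while BaP replicate 1 lies at 0.12 to 0.30 for the families and at 0.01, 0.21 and 0.67 for these markers.

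Genes that supply or complete conjugation were read from a list of 51 genes, of which 45 were listed at 96 hpf. In this list 32 lay above control (median log2 0.22), against 52.2% of all genes, and 3 were called higher (gstp1, gstp2 and gsr), against 0.381% of all genes, and none lower. The glutathione reductase gene gsr, which regenerates glutathione, stood at 32.0 and 29.6 CPM in controls and at 56.9 and 58.3 CPM in BaP larvae (log2 0.89, SE 0.13, adjusted p = 0.0379). Of 12 genes that make or carry the UGT and SULT donors or clear the spent sulphate donor, 7 lay above control, and none was called. The UDP-glucose dehydrogenase gene ugdh, which makes the UGT co-substrate, stood at 32.7 and 31.7 CPM in controls and at 37.7 and 50.1 CPM in BaP larvae (log2 0.43, adjusted p = 0.284). The PAPS synthase gene papss2a stood at 33.1 and 41.2 CPM against 52.3 and 55.9 CPM (log2 0.54, adjusted p = 0.202). Its paralogs papss1 (-0.22) and papss2b (-0.09) lay below control. Of 10 conjugate exporter genes 6 lay above control and none was called. Their log2 differences ran from 0.55 for abcg2a (adjusted p = 0.200) to -0.63 for abcc3 (adjusted p = 0.324), whose BaP libraries both lay below both controls, and abcc2 (MRP2) was at 0.36 (adjusted p = 0.280). The microsomal transferase mgst3b, listed as zgc:158387, stood at 90.0 and 86.0 CPM in controls and at 146 and 212 CPM in BaP larvae (log2 0.99, SE 0.18, adjusted p = 0.0760).

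At 3.3 hpf no member was called under either annotation, and no gene of the 14236 in the Ensembl table was called at all (0%). The Ensembl table listed 15 members, 7 UGT, 1 SULT and 7 GST. At an unadjusted p under 0.05 there was 1 of them, UGT8, against 4.92% of all genes. UGT8 stood at 4.38, 4.49 and 4.69 CPM in controls and at 6.76, 8.13 and 14.2 CPM in BaP embryos (log2 0.95, SE 0.31, limma adjusted p = 0.907). Its groups did not overlap, with BaP higher, as for 6.24% of all genes. The other member without overlap was the mu-class gene gstm3, at 1.35, 1.21 and 1.31 CPM in controls and 1.56, 2.51 and 2.86 CPM in BaP embryos (log2 0.62, SE 0.31, adjusted p = 0.907). The RefSeq table listed 14 members, with 0 at an unadjusted p under 0.05, against 5.31% of all its genes.

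The Ensembl entries listed in the blastula were 7 GST, 3 ugt2a and 3 ugt5 genes, UGT8 and sult3st1, and neither sult6b1 nor any UGT1 entry was listed at this age. A gene was listed only where at least 3 of the 6 libraries were above 1 CPM, so an unlisted gene may still have had reads. The gene gstm stood at 139, 149 and 144 CPM in controls and at 176, 110 and 115 CPM in BaP embryos (log2 -0.14, adjusted p = 0.929). The gene gsto2 stood at 58.3, 85.4 and 70.9 CPM in controls and at 76.5, 78.7 and 60.2 CPM in BaP embryos (log2 0.01, SE 0.17, adjusted p = 0.993), with BaP values inside the control range. The SULT entry sult3st1 stood at 19.9, 13.2 and 17.6 CPM against 17.6, 17.3 and 14.9 CPM (log2 -0.01, SE 0.21). Among the UGT entries ugt5g1 stood at 25.05, 24.6 and 25.7 CPM in controls and at 26.6, 14.6 and 15.9 CPM in BaP embryos (log2 -0.44, SE 0.24, adjusted p = 0.907). Its controls agreed closely and its BaP libraries did not. The entry ugt5c3 stood at 8.62, 19.5 and 22.7 CPM in controls and at 31.0, 11.4 and 30.7 CPM in BaP embryos (log2 0.49, SE 0.48, adjusted p = 0.919), a spread wider than the difference. In all 5 of 15 members lay above control, against 51% of all genes. Liver, pancreas and blood markers were not listed at this age.

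**Figure D5:**
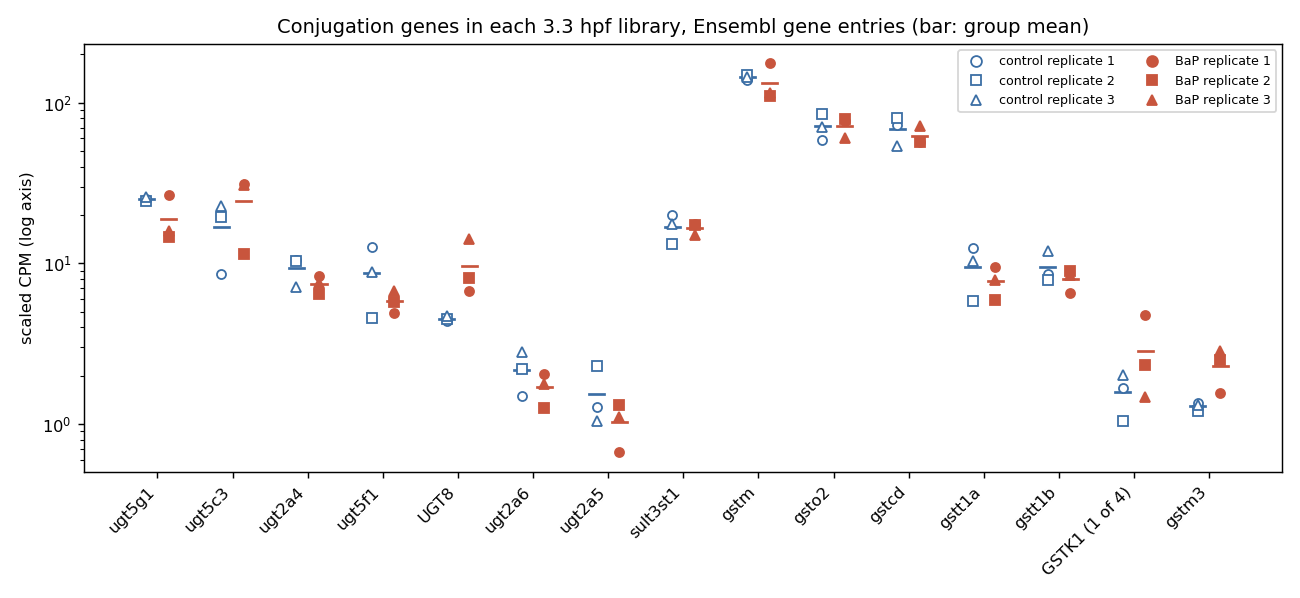
Scaled CPM of the 15 Ensembl entries listed at 3.3 hpf in each library on a log axis, controls open and BaP filled, with a bar at each group mean. The groups overlap for all entries except UGT8 and gstm3, which are higher in the 3 BaP libraries.

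The BaP difference at 96 hpf was set against that at 3.3 hpf in 1 fit of all 10 libraries over the 12800 genes listed at both ages. No member passed this test, against 0.0234% of all genes. The smallest p was that of gsto2, whose difference was larger at 96 hpf by a log2 value of 1.15 (SE 0.27, limma adjusted p = 0.249). At an unadjusted p under 0.05 there were 3 of 15 members, gsto2, ugt2a4 (0.94) and gstt1b (0.86), against 12.2% of all genes. The genes sult6b1 and ugt1b4 could not enter it, since they were not listed at 3.3 hpf.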

How the data were processed

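Pooled whole zebrafish were profiled in 10 libraries. The tables hold CPM, which the authors brought to the same total in each deposited column, as read from the values. TopHat, Partek, edgeR and Zv9 are named in the submitters' processing notes, with no role or version. Per the file headers the features are of Ensembl release 70 or RefSeq. The tables list genes over 1 CPM in 3 or more libraries (3.3 hpf) or 2 or more (96 hpf). Library depth was estimated from the step between low values. Of larval values between 0.5 and 300 reads, 77.1% under Ensembl and 85.8% under RefSeq were whole reads. The values are CPM and the rest were not whole reads, so no count test was run.

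Trimmed-mean factors (30% of log ratios and 5% of levels trimmed) were computed anew, from 0.941 to 1.07 in the larval Ensembl table. Differences were tested with limma 3.58.1 in R 4.3.3, with a trend of the spread, on log2(CPM + 0.5) over all genes of a table, and adjusted by Benjamini-Hochberg at 0.05. A fold change on this scale understates the change of low genes. The code was tested on simulated data.

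The members, lists and tests were chosen with earlier results of these data known. Named genes are those called under either annotation or at either age. Added in each family are the 4 smallest p, the 3 highest control levels, the 2 highest and 2 lowest log2 differences with a mean above 2 CPM at 96 hpf, and, at 3.3 hpf, the 2 highest control levels and the smallest p. Symbols with opposite signs under the annotations, the 3 most abundant found under 1 annotation, cyp1a, gstp1 and gstp2 complete the rule. Others were named after their values were seen. Names follow the files, and 57 of the 60 symbols matched a current or older reference name. In the 3.3 hpf RefSeq table columns could be assigned to groups but not to single samples. Alternatives were other scalings, pseudocounts (0.1 and 2), a filter at a mean of 5 CPM, other spreads, a replicate block, all 10 libraries in 1 fit, RefSeq or summed transcripts, and each library left out.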

Additional observations from a re-analysis of the deposited data

How the results depend on the processing

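The number of members called at 96 hpf in the Ensembl table (3) was 0 with no trend in the spread, 0 in the fit of all 10 libraries, from which sult6b1 and ugt1b4 were absent, and 3 to 20 with a library left out. In the RefSeq table (3) it was 1 with no trend, 0 in the fit of all 10 libraries, and 1 to 21 with a library left out, the 21 without BaP replicate 1, when 21.1% of all RefSeq genes were called. With no trend in the spread, 0.0106% of all Ensembl genes and 0.0886% of all RefSeq genes were called. In the fit of all 10 libraries the shares were 0.0312% and 0.033%. Few genes of any kind were called in these settings, so the low member counts there say little about the members. Where a library was left out of 2, the lone one was assumed to vary like the other group. Calls with a library left out rest on that assumption, so no conclusion is drawn from the member counts of those fits. Medians with a library left out ran from 0.12 to 0.53 for UGT, from 0.12 to 0.63 for SULT and from 0.30 to 0.75 for GST genes. No alternative called a member at 3.3 hpf or for the difference between ages.

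Of 483 values of named genes under alternatives, 442 kept their direction and side of the threshold, 5 lost their call and 14 reversed. The rest became called, all of them with a library left out or in a paired fit. Of all genes, 0.82% were called with same-numbered libraries paired and 11.5% with the crossed pairing. Reversals were ugt1ab (-0.54) and ugt2b3 (0.036) under RefSeq, gstcd (0.20) with summed transcripts and gsto2 at 3.3 hpf (-0.028) on CPM as deposited. With a library left out, log2 differences at 96 hpf ran from -0.078 to 0.62 for sult2st2, from -0.075 to 0.29 for sult4a1, from -0.18 to 0.63 for sult3st1 and from -0.29 to 0.11 for gstcd. At 3.3 hpf they ran from -0.17 to 0.12 for sult3st1 and from -0.13 to 0.15 for gsto2. The cause was not tested.

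At 3.3 hpf same-numbered libraries did not deviate together (correlation -0.44, -0.43 and -0.01). At 96 hpf the correlation was -0.26 for same-numbered libraries and 0.26 for the crossed pairing. With 2 libraries per group these are the same value with its sign turned. It cannot show whether the larval libraries were paired. With a replicate block the count was 4 in the Ensembl table (0.82% of all genes called) and 2 in the RefSeq table (0.209%) at 96 hpf, and 0 at 3.3 hpf and between ages, with the family medians at 0.25, 0.31 and 0.54. With the crossed pairing, chosen after seeing the data, it was 11, when 11.5% of all genes were called. No paired analysis was possible for the 3.3 hpf RefSeq table because its columns carry no replicate number. With 2 larval libraries per group, changes smaller than the gap between the BaP libraries could not be resolved at this depth and replication.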
